A study of Mus musculus and Homo sapiens with 4 samples.

Results

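The genes described here encode one subunit of each cytoskeletal filament system. ACTB encodes beta-actin, which polymerises into actin filaments that carry cell shape and motility. TUBA1B encodes an alpha-tubulin, which pairs with beta-tubulin to build microtubules. VIM encodes vimentin, an intermediate filament protein typical of mesenchymal cells and of many cultured lines. The genes were found by Ensembl transcript identifiers listed for them: ENST00000331789 (ACTB), ENST00000336023 (TUBA1B), ENST00000224237 and ENST00000544301 (both VIM) in human, and ENSMUST00000100497 (Actb), ENSMUST00000077577 (Tuba1b) and ENSMUST00000028062 (Vim) in mouse. All 7 were present, 4 in the human files and 3 in the mouse files, of 288251 transcripts listed in all. This rule used no measured value.

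Ribosome footprints, the RNA pieces that ribosomes shield from nuclease, were counted in 4 libraries. One pair was made from the E14 line of mouse embryonic stem (ES) cells, of 129/Ola background and cultured with LIF and without feeders. These cells received emetine for 60 s, at a dose that the labels do not state, or cycloheximide for the same time at 100 µg/ml. Both drugs stall elongating ribosomes. The HEK cells, a human embryonic kidney line, grew in DMEM with 10% serum; their bound library holds footprints of whole ribosomes pulled out with streptavidin by means of a tagged large subunit, and their input library was made without that capture. Each group has 1 library, so the conditions were not tested and no p-value is printed. Intervals given with values are exact two-sided 95% counting intervals, which leave out variation between cultures; amplified copies of a footprint are not independent molecules, so even counting error may be understated.

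Cells control these genes partly through their messages. The trailer (3′ untranslated region) of the beta-actin message carries a localisation element that directs it to the leading edge of motile cells. Tubulin messages are destabilised while they are being translated when free tubulin is in excess. Vimentin expression varies widely between cell types. A footprint count reflects both the amount of a message and the ribosomes on it, and without matched RNA measurements these cannot be told apart; nor can more cells that express a gene be told apart from more RNA per cell.

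Coding counts summed over all transcripts listed were 78702902 with emetine and 163107357 with cycloheximide. In HEK cells they were 15411358 in the bound and 7631840 in the input library. Ratios were therefore scaled so that the median coding region whose 2 libraries together hold at least 100 reads has a log2 ratio of 0. A read may enter the coding sums more than once, because transcripts of the same gene can list the same counts, as both VIM identifiers did. With identical coding rows counted once, the 3 genes took a larger share of these sums in each library, such as 0.531% instead of 0.375% in the bound library. Of all identifiers in the files, 0 occur in the name tables used here, so markers of ES cells, feeder cells or HEK cells and other cytoskeletal genes could not be looked up. In the RefSeq annotation of the mouse genome (GRCm38.p6), Actb lies on chromosome 5 at 142903115 to 142907976, Tuba1b on chromosome 15 at 98931429 to 98934390 and Vim on chromosome 2 at 13574311 to 13582826. Tuba1b has the related genes Tuba1a (98949847 to 98953501) and Tuba1c (99029891 to 99038105) beside it on chromosome 15, and Actb has a pseudogene, Actb-ps1, on chromosome X. Actin genes have similar coding sequences, as do alpha-tubulin genes, and sequences were not compared here. The sources used here do not state how reads with several matches were counted. Values for ACTB and TUBA1B may therefore hold reads of their relatives or lack reads of their own.

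In ES cells all 3 genes took a smaller share of coding counts with emetine than with cycloheximide. Actb had 329407 coding reads with emetine and 826500 with cycloheximide. These were 0.419% (interval 0.417 to 0.420) of all coding counts with emetine and 0.507% (0.506 to 0.508) with cycloheximide. Tuba1b had 122261 coding reads with emetine and 301527 with cycloheximide, shares of 0.155% (0.154 to 0.156) with emetine and 0.185% (0.184 to 0.186) with cycloheximide. Vim was counted far less often in these cells, with 5738 coding reads in the emetine library and 14003 in the cycloheximide library. Its shares were 0.00729% (0.00710 to 0.00748) with emetine and 0.00859% (0.00844 to 0.00873) with cycloheximide. Together the 3 genes made up 0.581% of coding counts with emetine and 0.700% with cycloheximide.

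In HEK cells the same genes took a larger share after capture than before it. ACTB had 14515 coding reads in the bound library and 6646 in the input, which were 0.0942% (0.0927 to 0.0957) of bound and 0.0871% (0.0850 to 0.0892) of input coding counts. TUBA1B had 36226 coding reads in the bound library and 15746 in the input, shares of 0.235% (0.233 to 0.237) bound and 0.206% (0.203 to 0.210) input. VIM had 7015 coding reads in the bound library and 3041 in the input, shares of 0.0455% (0.0445 to 0.0466) bound and 0.0398% (0.0384 to 0.0413) input. How many of all coding regions had shares that differ by as much was not counted, so the differences cannot be called particular to these genes. Abundant coding regions were in general higher in the bound library. Scaled to the median coding region, 197 of them with 10000 to under 100000 summed reads had a median log2 ratio of 0.13. Their lower quartile was 0.092. Both VIM identifiers, ENST00000224237.5 and ENST00000544301.1, list identical coding counts and are counted once here. The 3 genes together made up 0.375% of coding counts in the bound library and 0.333% in the input.

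**Figure D1:**
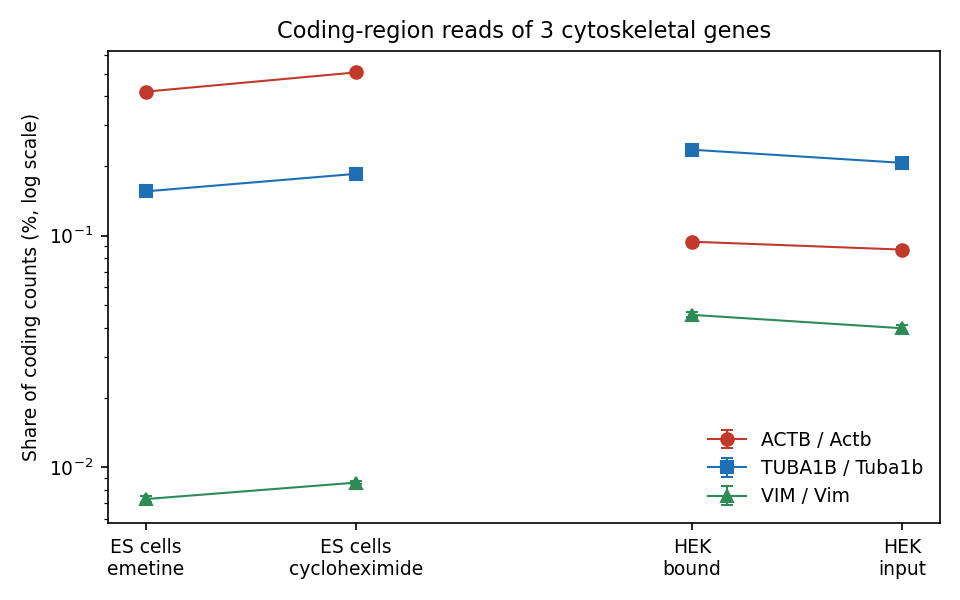
Share of all coding counts (%, log axis) taken by each gene in the 4 libraries; points are single libraries, bars exact 95% counting intervals, most of them smaller than the symbol, and lines join the libraries of a pair. All 3 genes sit lower with emetine than with cycloheximide and higher in the bound library than in the input; shares are not per length, so levels of different genes are not compared.

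Across the 2 cell types the order of the libraries differed by gene. For beta-actin both ES cell shares (0.419% with emetine, 0.507% with cycloheximide) were above both HEK shares (0.0942% bound, 0.0871% input). For vimentin both ES cell shares (0.00729% with emetine, 0.00859% with cycloheximide) were below both HEK shares (0.0455% bound, 0.0398% input). For alpha-tubulin the libraries lay closer together, with 0.155% with emetine and 0.185% with cycloheximide in ES cells, and 0.235% in the bound and 0.206% in the input library of HEK cells. Species, cell type, lysate preparation and annotation all differ between these pairs, so their parts in the differences cannot be told apart. The files give no lengths, and densities per base were not compared between genes.

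Scaled to the median coding region, the 3 mouse genes were lower with emetine by almost the same factor. Actb was 1.43-fold lower (interval 1.42 to 1.43; log2 ratio -0.51), Tuba1b 1.40-fold lower (1.39 to 1.41; -0.49) and Vim 1.39-fold lower (1.35 to 1.43; -0.47). None of the 3 (0 genes) was at least 2-fold different, a difference that 1.19% of 28604 coding regions showed in the lower and 1.46% in the higher direction. At 1.5-fold the number was again 0, against 7.46% of all coding regions lower and 8.16% higher.

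The relation between the genes barely moved with the drug. There were 2.69 Actb reads per Tuba1b read with emetine and 2.74 with cycloheximide, a fold of 0.983 (interval 0.975 to 0.991). Actb reads per Vim read were 57.4 with emetine and 59.0 with cycloheximide (fold 0.973, interval 0.943 to 1.003). Tuba1b reads per Vim read were 21.3 with emetine and 21.5 with cycloheximide (fold 0.990, interval 0.959 to 1.02). Of the 3 gene pairs, the interval thus lay wholly below 1 for Actb against Tuba1b and spanned 1 for both pairs with Vim. These ratios do not depend on the scaling.

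The ratio between the drugs depended on how many reads a coding region had, so each gene was also set beside coding regions of similar read number. Among 250 coding regions with at least 100000 summed reads the median log2 ratio was -0.52. Actb and Tuba1b, which belong there, were close to it: 131 regions had a lower ratio than Actb and 118 a higher one, and 151 were lower and 98 higher than Tuba1b. Vim belongs with 4352 coding regions of 10000 to under 100000 reads, whose median was -0.18. Its log2 ratio of -0.47 was below that of 3604 of them and above that of 747. Vim thus shared the ratio of the heavily read actin and tubulin genes, and was low for its own read number.

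Captured ribosomes held slightly more of all 3 genes than the median coding region. ACTB was 1.10-fold higher in the bound library than in the input (interval 1.07 to 1.13; log2 ratio 0.14), TUBA1B 1.16-fold higher (1.14 to 1.18; 0.21) and VIM 1.16-fold higher (1.11 to 1.21; 0.21). At least 2-fold differences were found in 0 of the 3 genes, against 0.0528% of 26492 coding regions higher and 0.861% lower. At 1.5-fold the number was also 0, against 1.37% of coding regions higher and 4.37% lower.

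Relative to each other, ACTB stood a little behind in the bound library. There were 0.401 ACTB reads per TUBA1B read in the bound library and 0.422 in the input (fold 0.949, interval 0.917 to 0.983). Per VIM read there were 2.07 ACTB reads in the bound library and 2.19 in the input (fold 0.947, interval 0.899 to 0.997). TUBA1B and VIM kept nearly the same proportion, with 5.16 TUBA1B reads per VIM read in the bound library and 5.18 in the input (fold 0.997, interval 0.952 to 1.045).

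All 3 HEK genes belong with 197 coding regions of 10000 to under 100000 summed reads, whose median log2 ratio was 0.13. ACTB was near the middle of them, with 104 regions lower and 92 higher. TUBA1B had 175 regions below it and 21 above. VIM had 177 below it and 18 above. So nearly all of the ACTB surplus over the median coding region was shared by abundant coding regions at large. For TUBA1B and VIM part of it was shared, and both stood in the upper range of that class.

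**Figure D2:**
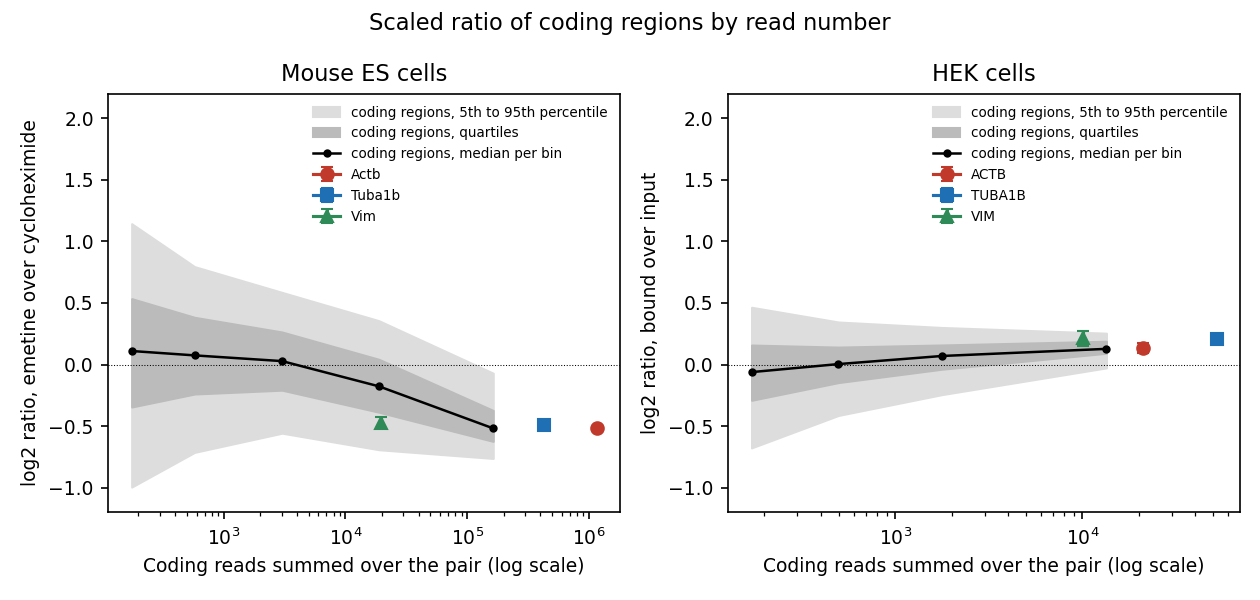
Scaled log2 ratio of the coding region (emetine over cycloheximide, left; bound over input, right) against coding reads summed over the pair (log axis); grey bands and the black line give the percentiles and median of all coding regions per bin of read number, drawn at each bin's median, and coloured points the 3 genes with exact 95% counting intervals. Actb, Tuba1b and Vim lie together near -0.5, where the most abundant bin has its median and Vim's own bin does not; the HEK genes lie between 0.14 and 0.21.

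Outside the coding region, Actb leader and trailer reads per coding read were both about 3-fold higher with emetine, more than the leaders and trailers of Tuba1b and the leader of Vim. The Actb 5′ leader, the stretch before the start codon, held 6975 reads with emetine and 5722 with cycloheximide. This was 21.2 leader reads per 1000 coding reads (interval 20.7 to 21.7) with emetine and 6.92 (6.74 to 7.11) with cycloheximide, a 3.06-fold difference (2.95 to 3.17). The leader was higher on its own as well: scaled to the median coding region, it was 2.14-fold higher with emetine (2.07 to 2.22), while the coding region was lower. How many other leaders were higher on their own was not counted, so this cannot be called particular to Actb.

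Leaders of the other two genes differed less. The Tuba1b leader held 2671 reads with emetine and 4766 with cycloheximide, or 21.8 (21.0 to 22.7) and 15.8 (15.4 to 16.3) per 1000 coding reads. Per coding read this was 1.38-fold higher with emetine (1.32 to 1.45). The scaled leader itself was at 0.985 of its cycloheximide level (0.939 to 1.03), an interval that includes 1. Scaled to total coding counts instead, a setting chosen after seeing the data, it was 1.16-fold higher (1.11 to 1.22), so its direction depends on the scaling. The Vim leader held 234 reads with emetine and 515 with cycloheximide, or 40.8 (35.6 to 46.5) and 36.8 (33.6 to 40.2) per 1000 coding reads. The fold of 1.11 (0.943 to 1.30) was not distinguishable from 1 at this depth.

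One of the 3 mouse genes was thus at least 2-fold higher in leader reads per coding read, and 0 were 2-fold lower; of 10499 transcripts measured, 19.1% were higher and 3.42% lower. The median log2 difference was 0.47 over the 3 genes and 0.39 over those transcripts. This median differed with abundance. Among 164 transcripts with at least 100000 coding reads the median was 0.85 and 40.9% were 2-fold higher; 20 of them exceeded Actb, whose log2 difference was 1.61, and 122 exceeded Tuba1b, at 0.47. For Vim, 1985 of 2686 transcripts with 10000 to under 100000 coding reads had a larger leader difference than its 0.15.

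Trailers, the stretches after the stop codon, held few reads in all 3 mouse genes. Actb had 554 trailer reads with emetine and 453 with cycloheximide, or 1.68 (1.54 to 1.83) and 0.548 (0.499 to 0.601) per 1000 coding reads. This was 3.07-fold higher with emetine (2.71 to 3.48). Tuba1b had 66 trailer reads with emetine and 101 with cycloheximide, or 0.540 (0.417 to 0.687) and 0.335 (0.273 to 0.407) per 1000 coding reads, 1.61-fold higher (1.16 to 2.22). Vim, with 31 trailer reads with emetine and 7 with cycloheximide, stayed under the minimum of 100. Its counts give 5.40 (3.67 to 7.68) trailer reads per 1000 coding reads with emetine and 0.4999 (0.201 to 1.03) with cycloheximide, a 10.8-fold difference with a wide interval (4.66 to 29.1).

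Of the 2 genes that reached 100 trailer reads, Actb was at least 2-fold higher per coding read; among 5467 transcripts 22% were 2-fold higher and 3.46% lower (9.03% and 1.505% with a minimum of 500 reads). Against transcripts as abundant as themselves, neither was unusually high. Of 117 transcripts with at least 100000 coding reads, 80.3% were 2-fold higher and the median log2 difference was 1.52. Actb was at 1.62, with 50 above and 66 below. Tuba1b was at 0.69, with 101 above and 15 below.

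A larger group of reads lay on the transcript but in none of the 3 parts listed in the files. The sources used here do not state how the bounds of the parts were drawn, so where these reads sit along the message was not analysed. Actb had 56120 such reads with emetine and 74742 with cycloheximide, or 170 (169 to 172) and 90.4 (89.8 to 91.1) per 1000 coding reads. Tuba1b had 10982 with emetine and 14650 with cycloheximide, or 89.8 (88.1 to 91.6) and 48.6 (47.8 to 49.4) per 1000. Vim had 1019 with emetine and 1682 with cycloheximide, or 178 (166 to 190) and 120 (114 to 126) per 1000. Per coding read the emetine library was higher by 1.88-fold (1.86 to 1.91) for Actb, 1.85-fold (1.802 to 1.897) for Tuba1b and 1.48-fold (1.36 to 1.61) for Vim.

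All 3 genes were higher per coding read with emetine here, as were 74.2% of 14600 transcripts. At least 2-fold differences were found in 0 of them, against 15.8% of 14600 transcripts higher and 2.83% lower; the median log2 difference was 0.89 over the 3 genes and 0.41 over all. Among 217 transcripts with at least 100000 coding reads the median was 0.72, with 68 above Actb and 74 above Tuba1b. The coding region made up a smaller percentage of each message's reads with emetine. It held 83.8% (83.7 to 83.9) of Actb reads with emetine and 91.1% (91.0 to 91.1) with cycloheximide. For Tuba1b the percentages were 89.9% (89.7 to 90.1) with emetine and 93.9% (93.8 to 94.0) with cycloheximide. For Vim they were 81.7% (80.8 to 82.6) with emetine and 86.4% (85.9 to 86.9) with cycloheximide.

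**Figure D3:**
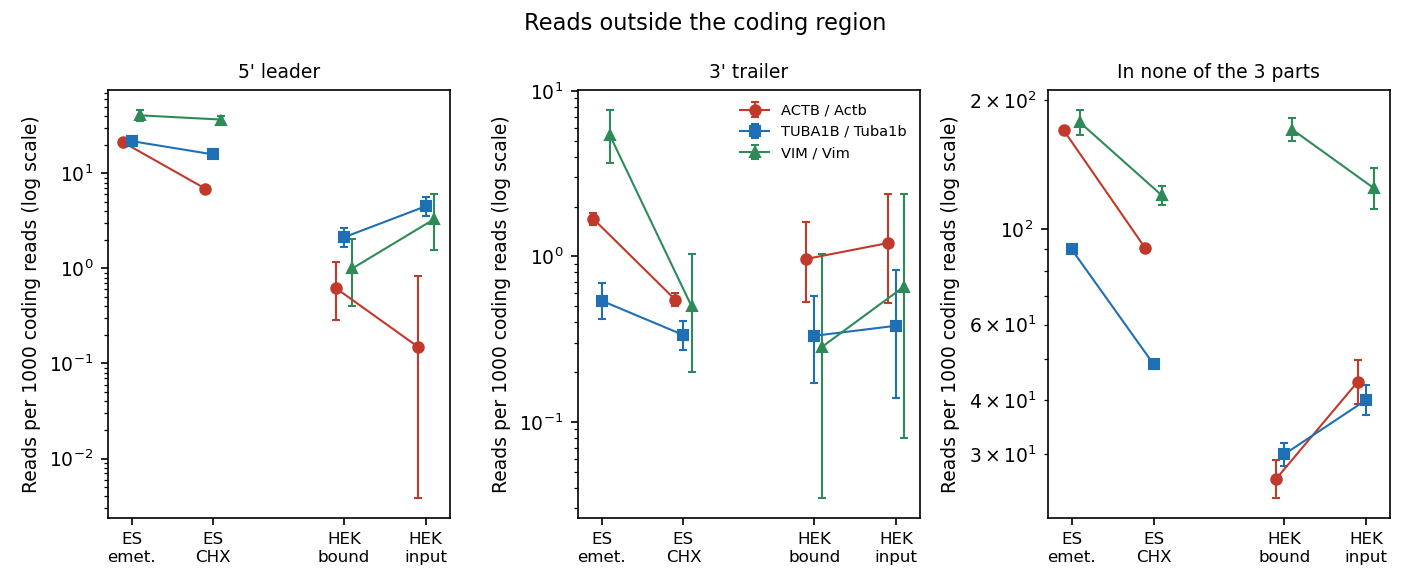
Reads in the 5′ leader, the 3′ trailer and in none of the 3 parts per 1000 coding reads of the same gene (log axes) in the emetine (emet.), cycloheximide (CHX), bound and input libraries; points are single libraries with exact 95% counting intervals, slightly shifted sideways for legibility. With emetine all 3 mouse genes sit higher in each panel, but the fold interval of the Vim leader (0.943 to 1.30) includes 1. The Actb leader lies at 21.2 against 6.92, and the Vim trailer, on 31 and 7 reads, at 5.40 against 0.4999. In HEK cells VIM moves against ACTB and TUBA1B in the right panel.

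In the HEK pair, TUBA1B was the one gene of the 3 with at least 100 leader reads. Its leader had 77 reads in the bound library and 71 in the input, or 2.13 (1.68 to 2.66) and 4.51 (3.52 to 5.69) per 1000 coding reads. Per coding read the bound library was 2.11-fold lower (interval 1.51 to 2.97; log2 difference -1.08). At least 2-fold lower differences were found in 3.44% of 930 transcripts, and 0.753% were 2-fold higher; 22 of the 930 were below TUBA1B. Among 45 transcripts with 10000 to under 100000 coding reads the median log2 difference was -0.52. Of these 45, 8.89% were at least 2-fold lower, and 2 transcripts were below TUBA1B.

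Leader reads of ACTB and VIM were too few for a comparison. ACTB had 9 in the bound library and 1 in the input, a ratio per coding read of 4.12 with an interval of 0.571 to 181. VIM had 7 in the bound library and 10 in the input by ENST00000224237.5, which was 3.30-fold lower per coding read (1.13 to 10.2). By ENST00000544301.1 it had 9 in the bound library and 10 in the input, 2.56-fold lower with an interval (0.935 to 7.14) that includes 1. These identifiers differ in the files in those 2 leader reads of the bound library and in the whole-transcript count there, 8222 against 8224.

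Trailer reads were as scarce in HEK cells. ACTB had 14 in the bound library and 8 in the input, TUBA1B 12 in the bound library and 6 in the input, and VIM 2 in each. No HEK trailer of these genes (0 of 3) reached 100 reads, where 1.19% of 1687 measured transcripts were 2-fold higher and 1.07% lower. The intervals of the ratio per coding read were 0.314 to 2.21 for ACTB, 0.302 to 2.82 for TUBA1B and 0.0314 to 5.98 for VIM, and all include 1. Per 1000 coding reads, ACTB had 0.965 trailer reads in the bound library and 1.204 in the input, and TUBA1B 0.331 in the bound library and 0.381 in the input.

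Reads in none of the parts were more frequent per coding read in VIM than in both other genes, in the input as well as the bound library. The difference between the libraries also ran in the opposite direction for VIM. ACTB had 381 such reads in the bound library and 294 in the input, or 26.2 (23.6 to 29.1) and 44.2 (39.2 to 49.7) per 1000 coding reads. TUBA1B had 1085 in the bound library and 631 in the input, or 29.95 (28.2 to 31.8) and 40.1 (37.0 to 43.4) per 1000. VIM had 1198 in the bound library and 379 in the input, or 171 (160 to 182) and 125 (112 to 139) per 1000. Per coding read ACTB was 1.68-fold lower in the bound library (1.44 to 1.97) and TUBA1B 1.34-fold lower (1.21 to 1.48), whereas VIM was 1.37-fold higher (1.21 to 1.55).

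At least 2-fold differences in these reads were found in 0 of the 3 HEK genes, against 0.506% of 2370 transcripts higher and 1.81% lower. Most transcripts were lower in the bound library, with a median log2 difference of -0.18. Among 173 transcripts with 10000 to under 100000 coding reads, which include both VIM identifiers, the median was -0.27. ACTB, at -0.75, had 4 of them below it, TUBA1B, at -0.42, had 58 below it, and VIM, at 0.45, had 4 above it. The coding region held 97.3% (97.0 to 97.5) of ACTB reads in the bound library and 95.6% (95.1 to 96.1) in the input. For TUBA1B it held 96.9% (96.7 to 97.0) in the bound library and 95.7% (95.4 to 96.0) in the input. For VIM it held 85.3% (84.5 to 86.1) in the bound library and 88.6% (87.5 to 89.7) in the input.

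**Figure D4:**
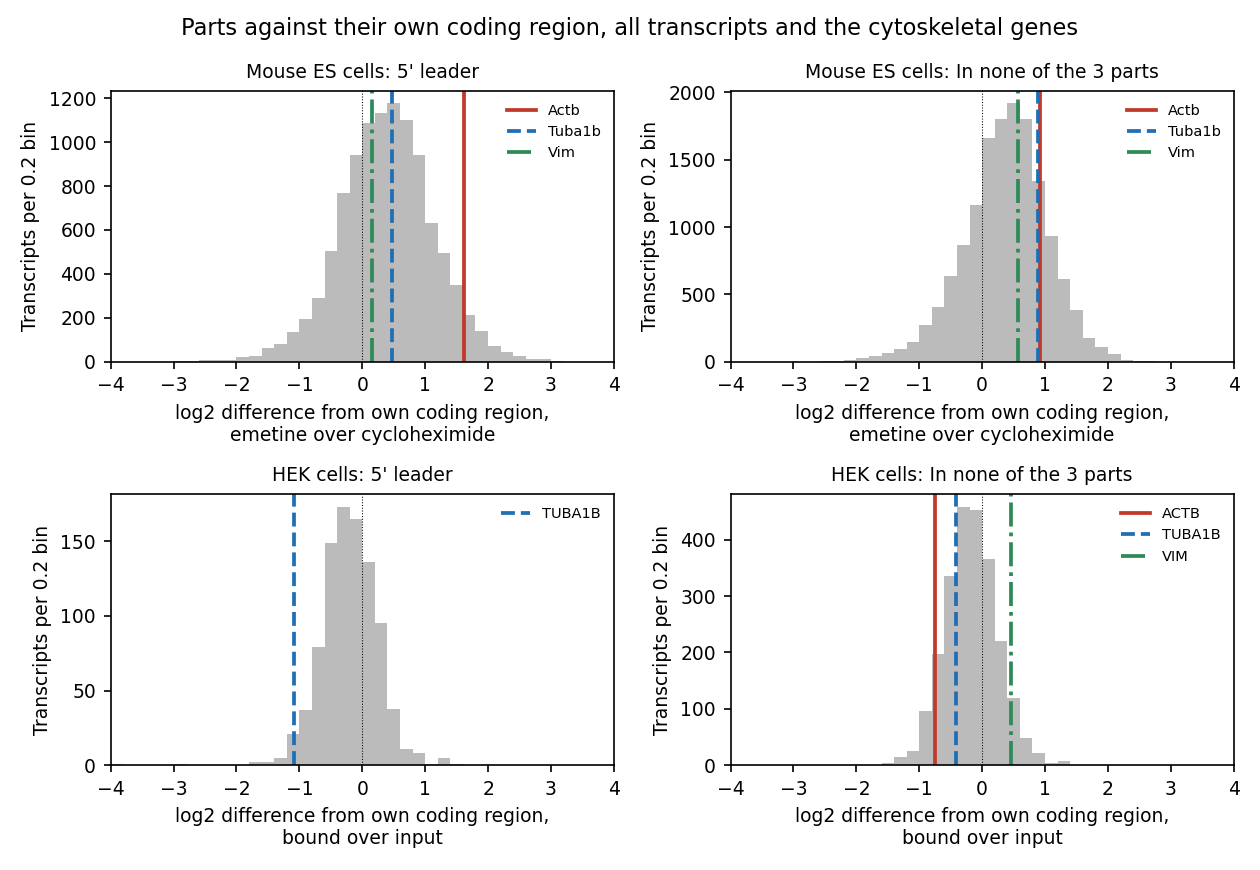
Log2 difference of the 5′ leader (left) and of reads in none of the 3 parts (right) from the coding region of the same transcript, emetine over cycloheximide (top) and bound over input (bottom); bars count all transcripts with at least 100 summed reads in both, and coloured lines mark the cytoskeletal genes that reach that minimum. The Actb leader lies at 1.61 in the right-hand slope of its distribution, the TUBA1B leader at -1.08 in the left-hand tail, and VIM at 0.45 on the other side of 0 from ACTB and TUBA1B.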

How the data were processed

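The deposited files hold raw read counts made by the authors, 1 file per library; per the file headers there is a column each for the transcript, its coding region, its leader and its trailer. The submitters' processing notes list CASAVA 1.8, Bowtie2 2.0.6, TopHat2 2.0.7 and, as builds, mm10 and hg19, and give no roles; a counting tool and an annotation release are not named in the sources used here. RNase I digestion made the footprints, per the labels' protocols, and ribosomes were pelleted (ES cells) or separated by size exclusion chromatography (HEK cells).

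Members and gene lists were chosen with earlier results of these data known. Every member present is named. Lists of other cytoskeletal genes and cell markers could not be matched to identifiers. The depth ratio was 0.569 for emetine over cycloheximide and 1.99 for bound over input. Before log2, 0.5 scaled reads were added to each count. A part counts as present where neither library lists it as missing, and reads in none of the parts are the transcript count minus the 3 parts. Part ratios are relative to the same transcript's coding region. Intervals are Clopper-Pearson or, for a ratio of ratios, conditional exact (Python 3.11.15, scipy 1.17.1). edgeR 4.0.16 gave TMM factors as an alternative scaling only. The procedure was tested on simulated data.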

Additional observations from a re-analysis of the deposited data

How the results depend on the processing

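No paired analysis was possible because there is only 1 library in each group. Scaling shifts all genes of a pair alike: total coding counts moved mouse log2 ratios up by 0.24, and total transcript counts moved HEK ratios up by 0.20. The median log2 ratio of the 3 mouse genes (-0.49) was -0.25 with total coding counts, -0.44 with total transcript counts, -0.48 with a minimum of 500 reads, -0.50 with 1 read in each library and -0.45 for whole transcripts. The HEK median (0.21) was 0.41 with total transcript counts, 0.24 and 0.16 with minimums of 30 and 500 reads and 0.26 with 1 read in each library. Under the 10 alternatives for scaling, minimum, prior and part counted, each mouse gene stayed below 0 and each HEK gene above it, and 0 genes reached 2-fold. Mouse reads in none of the parts, per whole-transcript read, had a median log2 difference of 0.79 in place of 0.89. Per count of whole transcripts the genes' summed share was 0.242% with emetine, 0.333% with cycloheximide, 0.191% in the bound library and 0.146% in the input; with identical coding rows counted once it was 0.673%, 0.812%, 0.531% and 0.474% in the same order. Minimums of 30 and 500 reads also moved the shares of all transcripts at least 2-fold different. For mouse leaders 6.55% and 0.739% were lower, and for mouse trailers 5.77% and 1.505%, with 9.03% higher at 500 reads. For HEK leaders 2.996% and 1.72% were higher and 10.8% and 1.72% lower, and for HEK trailers 4.19% and 0% were higher and 5.77% and 0% lower. Scaled to total coding counts, chosen after seeing the data, the leaders on their own had log2 ratios of 1.34 for Actb, 0.22 for Tuba1b and -0.087 for Vim, in place of 1.10, -0.022 and -0.32. Under 100 summed reads lay the HEK leaders of ACTB and VIM, the HEK trailers of all 3 genes and the mouse Vim trailer.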
